A study of Rattus norvegicus with 12 samples.

Results

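Small hepatocytes that had been passaged onto laminin-111 (LN111, 3 arrays) were compared with mature hepatocytes isolated from fresh livers (MH, 3 arrays), gene by gene, on single-colour Agilent microarrays. The arrays carried probes for 35838 gene names. Testing was limited to genes with a probe well above background on every LN111 array or on every MH array, 17672 in all. Both groups came from livers of F344 rats of the dipeptidylpeptidase IV positive strain, and the labels give neither sex nor age. The LN111 cells were primary cells released by collagenase perfusion, grown without serum, selected on day 9 with magnetic beads for CD44, a hyaluronan receptor on the cell surface, and expanded on Matrigel. They were taken at passage 2, having spent 3 h on laminin-111. Cells of the same passage kept for 3 h on laminin-511 (LN511, 3 arrays) or Matrigel (Mat, 3 arrays) are used here only to place the LN111 values. The culture medium was DMEM/F12 with 10 ng/mL epidermal growth factor, 10 mM nicotinamide, 1 mM ascorbic acid 2-phosphate, 1e-07 M dexamethasone, 30 mg/L proline and 0.5 mg/L of an insulin, transferrin and selenium supplement. As the labels describe them, the MH cells were neither cultured nor sorted, so culture, medium, passage, the CD44 sort and the coating all separate the groups at once. Cd44 itself was the sort marker and its level is not a result, although it is counted in the progenitor and the receptor lists below, whose counts are also given without it.

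Small hepatocytes are proliferating hepatocytic progenitor cells of the adult rat liver that form colonies in culture. Laminin-111 is a trimeric glycoprotein of basement membranes, bound on the cell surface by integrins and by dystroglycan, and it is the main laminin of Matrigel. A mature hepatocyte devotes much of its messenger RNA to secreted plasma proteins, drug-metabolising enzymes and the enzymes of amino acid, lipid and bile acid metabolism, and a network of transcription factors (HNF4A, the CEBP and FOXA families and several nuclear receptors) keeps those genes active.

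Levels are log2 ratios of a processed signal to the 75th percentile of its own array, so a level of 0 is the 75th percentile of the array. Differences are LN111 minus MH on that log2 scale, as mean ± SE from a limma fit of all 12 arrays, and a gene is called higher or lower where its Benjamini-Hochberg adjusted p over the 17672 genes was under 0.05. Where 1 group had no array with the gene well above background, the difference is only bounded: "at least N-fold" divides the brighter group's mean by a ceiling for the dimmer group. That ceiling is, averaged over its arrays, the probe's reading or the dimmest reading that counted as above background on the array, whichever was larger. Among the genes named below, Ccl2, Col1a1, Cyp1b1, F3, Gpx3, Msln, S100a4 and Saal1 were measured on 1 MH array, Ccn2, Cdkn2a, Des, Flna, H19, Oxct1 and Pygb on 2 MH arrays, Apof, Inhbc, Inhbe, Kynu, Serpina3c and Stab2 on 1 LN111 array, and Cps1, Mbl2, Nr1i3, Pck1 and Socs2 on 2. Their differences rest in part on arrays at background. Between 55.88% and 60.22% of the 58717 non-control spots were well above background on the LN111 arrays and between 52.18% and 54.21% on the MH arrays, and 0 spots were saturated. LN111 replicate 3 was the noisiest array, with a coefficient of variation over repeated probes of 8.66% (3.13% to 4.03% on the other 11 arrays) and 1126 spots marked as outliers (350 to 499 on the others). All LN111 arrays lay on 1 slide and all MH arrays on another, so slide and group cannot be told apart except through the Mat arrays, which lay on both. Mat replicates 1 and 2 shared the slide of the MH arrays, and only Mat replicate 3 that of the LN111 arrays. Within Mat the slide therefore goes with replicate number. Whether the replicates are separate animals or cultures is not stated, and the p-values therefore describe only the spread among these samples, which may be technical.

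Most genes differed. Of 17672 genes, 12325 (69.7%) were called, 4808 higher in LN111 (27.2%) and 7517 lower (42.5%). The 3 LN111 arrays all lay above the 3 MH arrays in 27.2% of genes and all below them in 44%. The differences were large: 8917 called genes differed by at least 2-fold, 2116 were higher and 2635 lower by at least 2 on the log2 scale, and 77 were higher and 108 lower by at least 8. A further view of size comes from detection, with 1647 genes (9.32%) well above background on all LN111 arrays and no MH array and 630 (3.56%) the other way round. The median difference over all genes was -0.28. It shifted to -0.40 with normexp background correction, to 0.12 with quantile normalization and to 0.73 without scaling between arrays, and the share of calls that were higher was 39% in the main analysis, 26.8%, 54.4% and 75% in those settings, so small differences have no firm direction. With the slide as a block, 8169 genes (46.2%) were called, 3061 higher (17.3%) and 5108 lower (28.9%). That fit rests on the Mat arrays alone, replicate 3 against replicates 1 and 2. Named genes that lost their call in that fit are Acaca, Apoc3, Ccnd1, Cdkn1a, Cebpd, Col18a1, Col3a1, Col6a3, Cyp1b1, Des, Dusp1, Dusp6, Fgb, H19, Hes1, Hnf4a, Irf1, Irs2, Krt18, Lamb3, Lbp, Loxl2, Mgp, Nid1, Pdgfrb, Sirt1, Slc2a2, Thy1, Tsc22d3, Ugdh and Wt1.

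**Figure D1:**
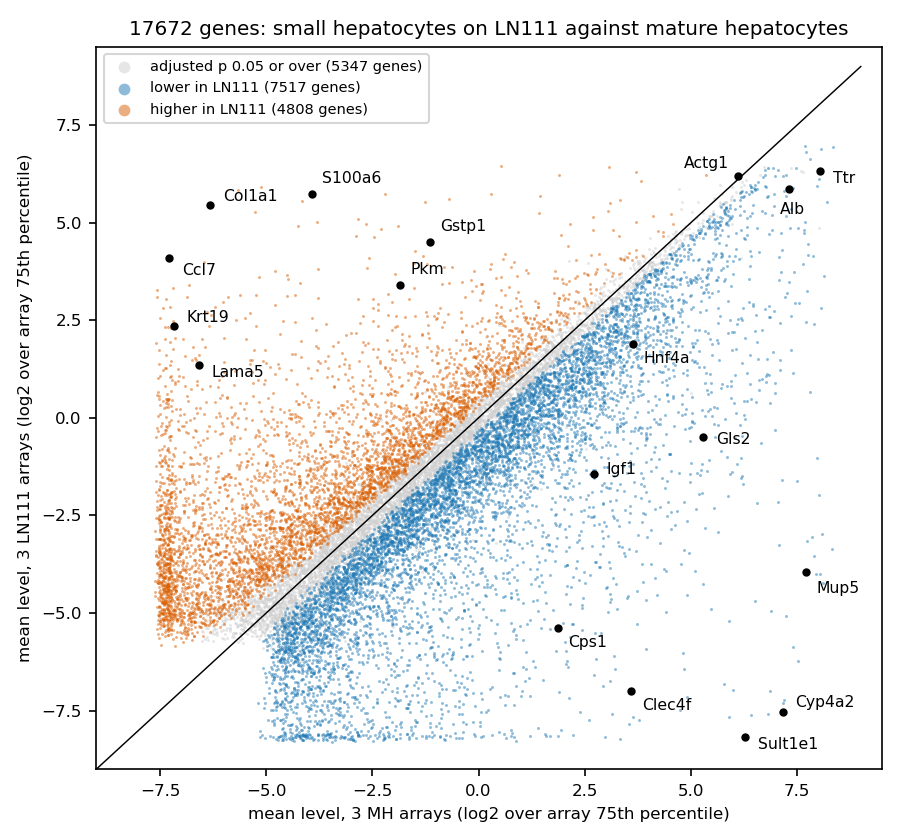
Mean level on the 3 LN111 arrays (y axis) against the mean level on the 3 MH arrays (x axis) for 17672 genes, both as log2 of the signal over the array's 75th percentile, coloured by call, with 18 genes labelled and the line of equality. The crowded edges at the left and bottom are genes at the background of 1 group, where only a bound on the difference is known, and genes of liver metabolism such as Cyp4a2 and Sult1e1 lie far below the line.

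The extremes were a collagen, chemokines and matrix proteins on one side. On the other they were liver enzymes and secreted liver proteins, some of them male-type. Col1a1, the main chain of type I collagen, stood at 4.97, 5.47 and 5.88 on the LN111 arrays and -6.15, -7.86 and -4.95 on the MH arrays. Every LN111 value was far above every MH value, and the difference of 11.76 ± 0.76 (adjusted p = 4.4e-07) led all genes higher in LN111. Ccl7 and Ccl2, which draw monocytes, were among the 15 largest increases, Ccl7 at least 675-fold higher and Ccl2 higher by 10.53 ± 0.74. Tnn (a tenascin) was at least 385-fold, Slit3 (a guidance ligand) at least 394-fold and Pdpn (podoplanin) at least 329-fold higher. S100a4, a calcium-binding protein of motile cells, was higher by 11.03 ± 0.44 with its brighter probe and by 3.35 with another. Saal1, higher by 11.50 ± 1.35, and Vom2r-ps135, at least 626-fold higher, also ranked among the 15 largest, under names that rest on the array's own annotation. Among genes well above background on all 6 arrays, the largest increases were those of S100a6 (9.68 ± 0.41), Smoc2 (9.18 ± 1.15), Anxa1 (8.84 ± 0.36) and Cav1 (8.54 ± 0.56), the last coding for the coat protein of caveolae.

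On the other side, Cyp4a2, a fatty acid hydroxylase, stood at 7.08, 7.56 and 6.84 on the MH arrays and was not well above background on any LN111 array, at least 9780-fold lower. Cyp2c13 and Cyp3a2, steroid hydroxylases of the male rat liver, were at least 7710-fold and 5850-fold lower. Sult1e1, which sulfates oestrogens, was at least 5320-fold lower and Sult2a1, which sulfates bile acids and hydroxysteroids, at least 1800-fold. Serpina3c, a serine protease inhibitor, differed by -13.26 ± 0.93 and Apof, an apolipoprotein, by -12.97 ± 0.58. Mup5, a major urinary protein, was at -5.19, -3.57 and -3.1 in LN111 and 7.67, 7.58 and 7.91 in MH. Probes for the Mup, Cyp2c, Cyp3a and Cyp4a families may share signal between near-identical genes, so the member named is uncertain.

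The gene lists behind the next paragraphs are summarised by counts and medians, beside the shares called over all genes (27.2% higher, 42.5% lower) and the median of -0.28.

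**Figure D2:**
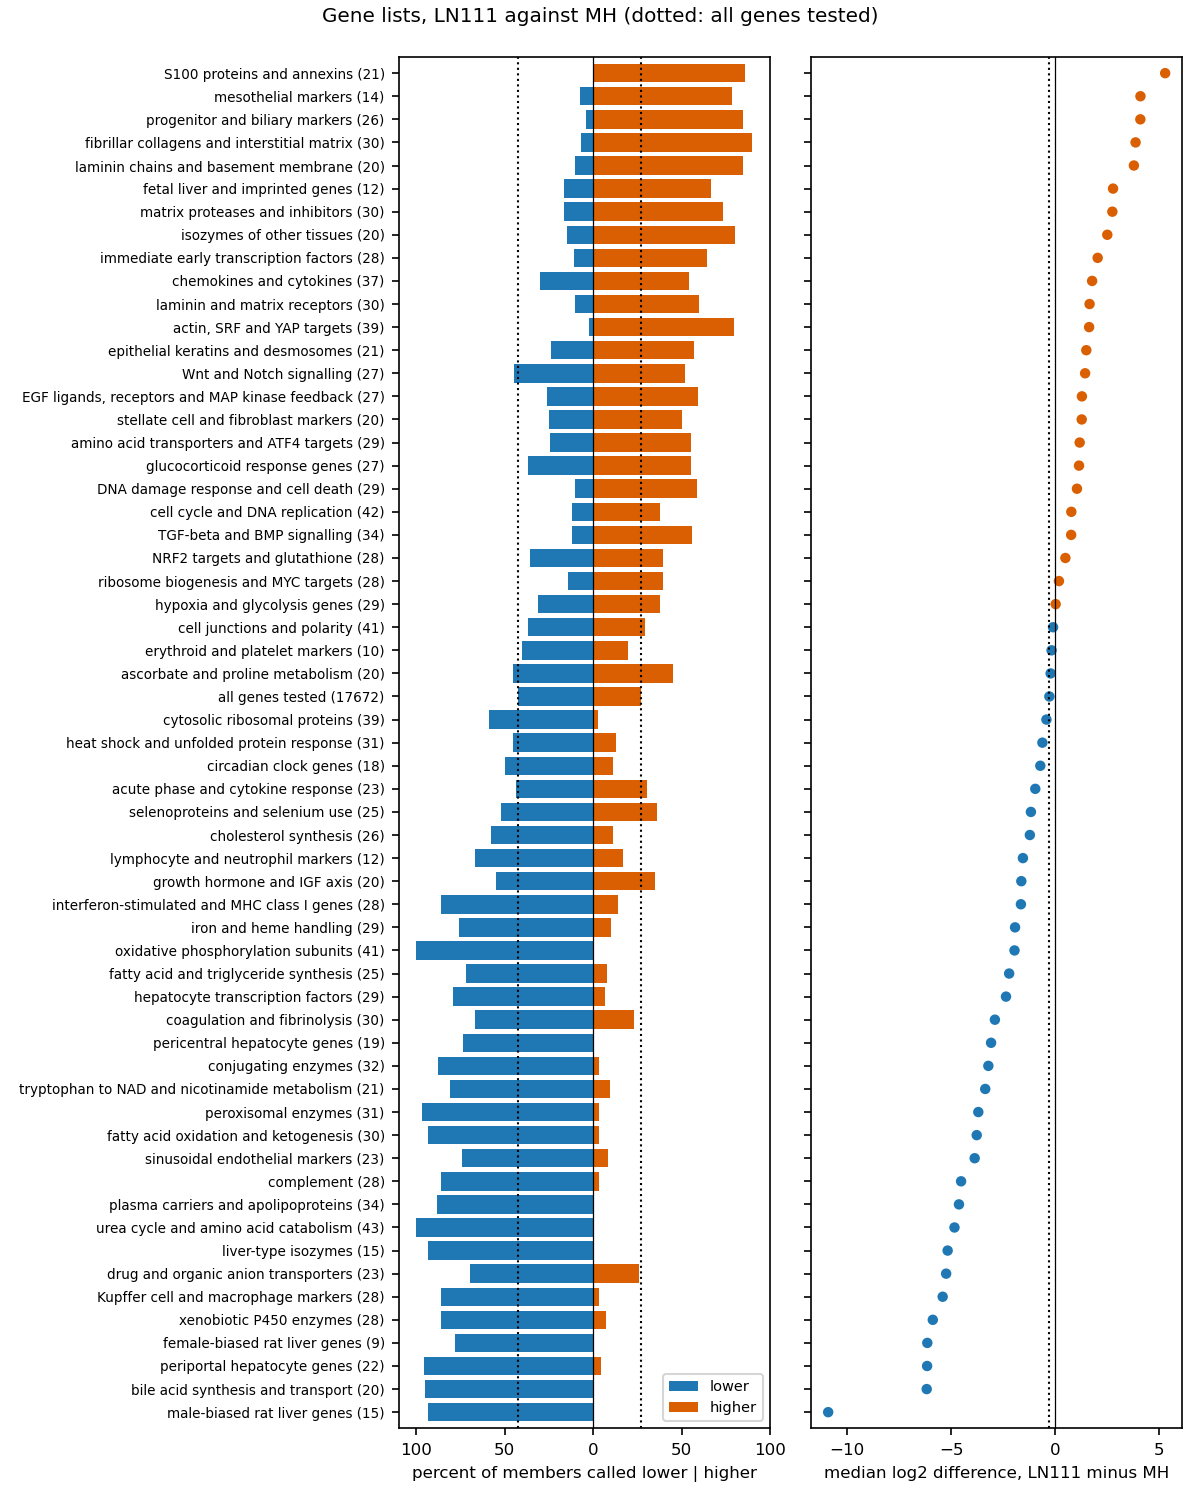
Left, percent of the members of each gene list called higher (to the right) or lower (to the left) in LN111, with the number of tested members in brackets. Right, the median log2 difference of the members, LN111 minus MH. Dotted lines give the values of all 17672 genes. Lists of liver function fill the lower part, and lists of matrix, S100 proteins and annexins, progenitor and mesothelial markers the top. Medians of the lists near 0 change sign with the scaling.

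The 3 LN111 arrays did not agree equally on all genes. Of the 1511 genes lower by at least 2 on the log2 scale and well above background on all 6 arrays, 263 (17.4%) ranged over more than 2 log2 units within LN111, against 34 (2.25%) within MH. Replicate 1 was the highest LN111 array for 232 of the 263, and replicate 2 the lowest for 187. Over all genes tested, deviations from the group mean ran together on LN111 and Mat arrays of replicates 1 and 2 (correlations 0.59 and 0.735). For replicate 3 the correlation was 0.096, while Mat replicate 3 correlated at 0.543 with LN111 replicate 1. The other LN111 and Mat pairs of unlike number ranged from -0.67 to 0.046. The list of plasma carriers and apolipoproteins was the most uneven, followed by coagulation (median LN111 range 2.62) and stellate cell markers (2.32): the 31 plasma carriers and apolipoproteins measured on all 6 arrays had a median LN111 range of 2.94, and 27 of them were highest on replicate 1. The 41 oxidative phosphorylation genes had a median range of 0.28. Of the 1511 genes, 435 ranged over less than 0.5, as did 6688 of all 13333 genes measured on the 6 arrays.

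Apoc3, an apolipoprotein of triglyceride-rich particles, gives the uneven pattern, at 5.42, 1.43 and 4.07 on LN111 replicates 1, 2 and 3 and 8.07, 8.02 and 8.32 on the MH arrays. Fabp1, the fatty acid binding protein of liver, read 1.97, -1.99 and -3.07 against 7.92, 7.85 and 8.16. In both genes every LN111 array was below every MH array, and replicate 1 stood closest to MH. Alb, albumin, gives the even pattern, at 5.75, 5.69 and 6.12 against 7.22, 7.18 and 7.49. Which of these differences reflects fewer cells of a type and which less RNA per cell cannot be told apart in bulk RNA.

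**Figure D3:**
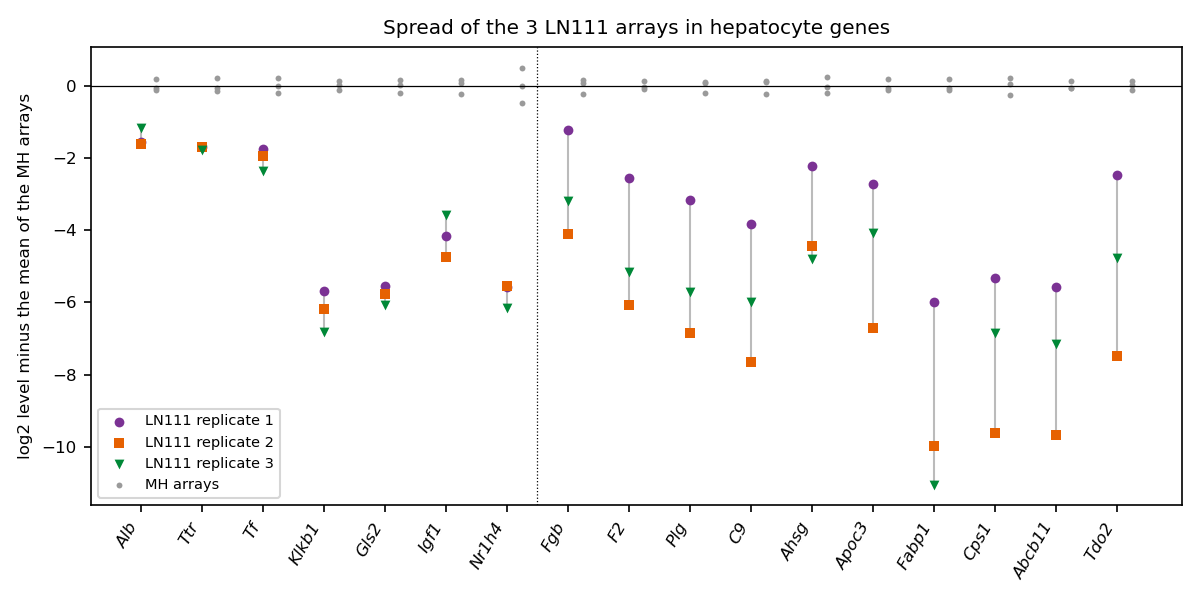
Level on each LN111 array minus the mean of the MH arrays (log2) for 17 hepatocyte genes picked after their values were seen, 7 that were even across the LN111 arrays (left of the dotted line) and 10 that were not. Grey points are the 3 MH arrays, and replicate 1 is the highest LN111 array in each of the 10 uneven genes.

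The transcription factors of the hepatocyte were mostly lower, to very different degrees. Of 29 tested, 23 were called lower and 2 higher, with a median of -2.36. Nuclear receptors of bile acid and drug sensing were the lowest. Nr0b2, the SHP repressor of bile acid synthesis, read -4.10, -3.97 and -4.52 in LN111 and 5.32, 3.22 and 3.06 in MH (-8.07 ± 0.73, adjusted p = 4.7e-06). Nr1h4, the bile acid receptor FXR, was at -2.39, -2.36 and -2.97 against 3.68, 3.18 and 2.70 (-5.76 ± 0.25). Nr1i3, the drug sensor CAR, differed by -5.91 ± 0.56. The LN111 arrays of these receptors lay together and well below MH.

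Hnf4a, Cebpa and Prox1 differed by less than the receptors above. Hnf4a, the factor most hepatocyte genes depend on, stood at 1.88, 2.50 and 1.26 in LN111 and 4.03, 3.45 and 3.44 in MH. Its difference of -1.76 ± 0.37 (adjusted p = 0.0018) left no overlap between the groups, and it came to -1.20 (adjusted p = 0.18) with the slide as a block, to -0.79 with quantile normalization and to -0.75 without scaling, and was not called in these fits. Cebpa, which is high in quiescent hepatocytes, was at 0.27, 0.97 and 0.03 against 4.87, 4.24 and 4.24, a difference of -4.03 ± 0.28. Prox1, a homeobox factor needed for liver outgrowth, differed by -0.04 ± 0.20 and was not called, although another of its probes read -2.66 and the call was higher with quantile normalization (1.06) and without scaling (0.97). The exceptions were Cebpd, a factor induced in inflammation (2.21 ± 0.41), and Gata6, an early endodermal factor (1.27 ± 0.31).

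Promoter sequences were read for 10429 of the 17672 genes from RefSeq's rat table on build GRCr8, each covering 250 bases before to 50 after the annotated start. Short motifs were counted on both strands, and the promoters below were picked after the values were seen. The first 4 hold GTTAAT or, in Fgb and Plg, its reverse complement ATTAAC (in capitals), a motif known from promoters of plasma protein genes, in genes that were lower. All lie on the minus strand, and each line gives 130 bases.
Alb, chr14:17906980-17907109: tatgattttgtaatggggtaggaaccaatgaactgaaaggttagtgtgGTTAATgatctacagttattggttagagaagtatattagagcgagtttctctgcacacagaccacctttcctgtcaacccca
Fgb, chr2:170700876-170701005: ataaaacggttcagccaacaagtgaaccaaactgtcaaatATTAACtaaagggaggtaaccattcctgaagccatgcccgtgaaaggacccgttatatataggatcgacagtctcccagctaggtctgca
Plg, chr1:50915407-50915536: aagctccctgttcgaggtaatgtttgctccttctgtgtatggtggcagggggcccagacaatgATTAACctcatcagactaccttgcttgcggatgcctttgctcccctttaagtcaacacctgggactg
C8a, chr5:124866632-124866761: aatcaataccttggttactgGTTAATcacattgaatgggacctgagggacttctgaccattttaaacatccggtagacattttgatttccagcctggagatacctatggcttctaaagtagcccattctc

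GTTAAT stood in 4.85% of the promoters of all tested genes, in 11.5% of the 628 promoters of genes lower by at least 4 and in 2.87% of the 453 of genes higher by at least 4. The share was 31.8% in the coagulation list, 25% among plasma carriers and 22.2% in the complement list. It was also high in the periportal (26.7%), drug transporter (21.1%) and conjugating enzyme (20.8%) lists. The fetal and imprinted list, mostly higher in LN111, held it in 22.2% (2 of 9). Promoters of the genes lowest in LN111 also differed in composition: 19.9% of those lower by at least 4 were rich in CpG (observed over expected of at least 0.6), against 53.9% of those higher by at least 4 and 67.9% of all. A GC box, GGGCGG, was in 28.5% of the former and 59.3% of all. A TATA box, TATAAA, was in 17.4% of them, in 10.8% of those higher by at least 4 and in 8.08% of all.

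Genes higher in LN111 are shown with a TEAD motif, CATTCC (Flna and Myh10), or an AP-1 motif, TGANTCA (Ccl7, Gstp1 and Srxn1), in capitals. Flna and Gstp1 lie on the minus strand and the other 3 on the plus strand.
Flna, chrX:157182344-157182473: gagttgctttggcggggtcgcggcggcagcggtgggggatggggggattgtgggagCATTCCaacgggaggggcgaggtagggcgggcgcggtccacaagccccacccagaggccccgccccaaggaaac
Myh10, chr10:53893134-53893263: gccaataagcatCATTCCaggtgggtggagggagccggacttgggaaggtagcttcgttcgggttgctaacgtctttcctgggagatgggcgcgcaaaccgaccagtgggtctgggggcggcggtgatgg
Ccl7, chr10:67513965-67514094: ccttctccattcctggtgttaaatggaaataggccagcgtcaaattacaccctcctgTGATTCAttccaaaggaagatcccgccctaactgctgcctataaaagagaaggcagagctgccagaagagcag
Gstp1, chr1:210769706-210769835: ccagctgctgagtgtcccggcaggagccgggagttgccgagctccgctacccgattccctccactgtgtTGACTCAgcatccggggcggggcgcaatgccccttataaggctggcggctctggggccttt
Srxn1, chr3:161064682-161064811: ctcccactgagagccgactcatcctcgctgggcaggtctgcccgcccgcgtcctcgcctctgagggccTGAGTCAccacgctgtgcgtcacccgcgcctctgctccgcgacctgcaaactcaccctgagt

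CATTCC was found in 11.4% of all tested promoters, in 19.4% of those of genes higher by at least 4, in 15.8% of those lower by at least 4, and in 40% (12 of 30) of the list of actin, SRF and YAP targets. Other lists held it often too, among them fibrillar collagens (30%), the male-biased list (33.3%), chemokines (28%) and the lower complement and periportal lists (27.8% and 26.7%). TGANTCA was in 5.27%, 8.39% and 6.37% of the first 3 sets and in 32% of the chemokine and cytokine promoters. A match is a description of these letters and not a site of binding.

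Genes of secreted plasma proteins were lower, by very different amounts. Of 34 plasma carriers and apolipoproteins, 30 were called lower and 0 higher, with a median of -4.62. Alb differed by -1.45 ± 0.19 (adjusted p = 7.5e-05), with its levels given above. Ttr, the thyroxine carrier transthyretin, was at 6.36, 6.34 and 6.28 against 7.97, 7.91 and 8.26 (-1.72 ± 0.18), and Tf, the iron carrier transferrin, at 6.22, 6.02 and 5.61 against 7.96, 7.77 and 8.16 (-2.01 ± 0.25). In these genes the LN111 arrays lay below the MH arrays, but with quantile normalization Alb came to 0.06, Ttr to -0.14 and Tf to -0.41, and none of them was called. Fetuin and an apolipoprotein differed by more: Ahsg differed by -3.82 ± 0.94 and Apoc3 by -4.50 ± 1.56, the latter a call lost in 4 of the 6 fits that left out 1 array (-4.56 to -3.39).

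The coagulation list held changes both ways, 20 of 30 lower and 7 higher. Among the liver's clotting factors, Klkb1 (prekallikrein) differed by -6.23 ± 0.24, Proc (protein C) by -5.13 ± 0.71, F2 (prothrombin) by -4.59 ± 1.16 and Plg (plasminogen) by -5.24 ± 1.33. Fgb, a fibrinogen chain, stood at 6.43, 3.54 and 4.47 against 7.73, 7.41 and 7.82, a difference of -2.84 ± 1.01 whose call was lost in 5 of the 6 fits that left out 1 array (-2.96 to -2.20). The genes that were higher belong to the cell-bound side of clotting and to fibrinolysis. Plat, the tissue plasminogen activator, was at 4.87, 5.12 and 4.55 in LN111 and -2.24, -2.49 and -2.20 in MH (7.16 ± 0.20). F3, tissue factor, was higher by 5.92 ± 0.39 and Plaur, the urokinase receptor, by 3.84 ± 0.34.

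Of 28 complement genes, 24 were lower and 1 higher (median -4.52). Mbl2, a lectin that starts the lectin pathway, differed by -9.45 ± 0.85, C8a of the membrane attack complex by -5.44 ± 1.08 and C3, the central component, by -3.59 ± 0.90. The exception was Cd55, a membrane protein that dismantles the C3 convertase, at least 42.3-fold higher. C1r and C1s, the proteases of the C1 complex, were not called (0.57 ± 0.43 and 0.68 ± 0.83), but C1r was with quantile normalization (1.62) and without scaling (1.58). Among acute phase genes, 10 of 23 were lower and 7 higher, and the median of -0.95 turned to 0.49 with quantile normalization and 0.05 without scaling. A2m, a protease inhibitor and a main acute phase protein of the rat, was at 5.68, 3.50 and 5.76 in LN111 and -3.38, -2.02 and -2.54 in MH (7.63 ± 1.16). Lbp, which binds bacterial lipopolysaccharide, was higher by 3.15 ± 0.54, while Crp differed by -5.22 ± 0.73.

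Metabolic enzymes that exist as a liver isozyme and an isozyme of other tissues moved in opposite directions. Of 15 liver-type isozymes, 14 were lower and 0 higher (median -5.17), and of 20 isozymes of other tissues, 16 were higher and 3 lower (median 2.51). Gls2, the liver glutaminase, read -0.25, -0.48 and -0.79 in LN111 and 5.32, 5.46 and 5.10 in MH, a difference of -5.80 ± 0.16 (adjusted p = 3.7e-09). Pfkp, the platelet phosphofructokinase, read 2.12, 2.36 and 2.52 and -2.06, -1.81 and -2.03, higher by 4.30 ± 0.13 (adjusted p = 5.5e-09). In both genes the arrays of a group lay close together, and the groups were far apart.

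Hk1, a hexokinase of most tissues, was at least 20.1-fold higher. Pklr, the pyruvate kinase of liver and red cells, differed by -4.04 ± 0.67 and Pkm, the form of other tissues, was higher by 5.27 ± 0.31. Aldoa, the muscle aldolase, was higher by 2.28 ± 0.14. Pygl, the liver glycogen phosphorylase, differed by -4.07 ± 0.26 and Pygb, the brain form, was higher by 3.84 ± 0.19. Mat1a, which makes S-adenosylmethionine in adult liver, differed by -6.14 ± 1.18, and Mat2a, the form of other tissues, was higher by 3.13 ± 0.24.

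Exceptions existed on both sides. Pfkl, the liver phosphofructokinase, differed by -0.34 ± 0.16 and was not called, except with the slide as a random block (-0.32), unlike Pfkp above. Slc2a2, the glucose transporter of hepatocytes, was at 1.86, 2.81 and 1.65 against 3.38, 2.44 and 3.33, and the groups overlapped, with a call (-0.94 ± 0.32) that was lost in 4 of the 6 fits leaving out 1 array (-0.82 to -0.71) and turned to 0.06 without scaling. Among genes listed as isozymes of other tissues, Acaca, an acetyl-CoA carboxylase of fat-making tissues that liver also expresses, was lower (-1.87 ± 0.44). So were Fbp2, the muscle fructose bisphosphatase (at least 6.73-fold), and Hk3, the hexokinase of myeloid cells (at least 4.59-fold).

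**Figure D4:**
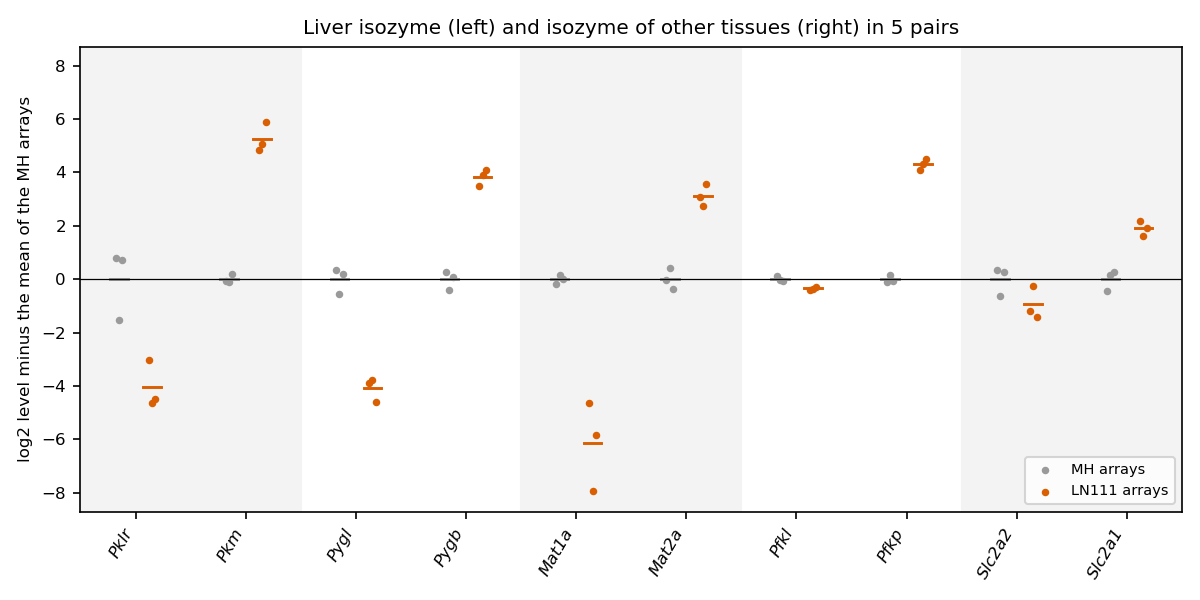
Level on each array minus the mean of the MH arrays (log2) for 5 pairs of enzymes or transporters, the liver form on the left of each pair and the form of other tissues on the right. Points are arrays and bars are group means. The LN111 arrays lie below 0 for Pklr, Pygl and Mat1a and above 0 for each partner, while Pfkl and Slc2a2 lie near MH.

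The sex-typed genes of the rat liver, which growth hormone pulses control, were among the most reduced. Of 15 male-biased genes, 14 were lower and 0 higher, with a median of -10.92, the lowest of the lists described here. Of 9 female-biased genes, 7 were lower and 0 higher (median -6.15). Cyp2c11, the main male-specific P450, stood at -3.38, -4.01 and -2.42 in LN111 and 7.37, 6.40 and 7.42 in MH (-10.34 ± 0.55). Obp3, a carrier of the lipocalin family, differed by -9.98 ± 0.69. Among genes of growth hormone action, Ghr, the growth hormone receptor, was at -0.25, -0.52 and 0.15 against 4.72, 4.33 and 4.74 (-4.80 ± 0.30), and Stat5b, which carries its signal, differed by -2.03 ± 0.26. Socs2, a feedback target, differed by -5.25 ± 0.49, Igf1, the circulating growth factor it induces, by -4.16 ± 0.28, and Igfals, the protein that holds IGF1 in plasma, was at least 301-fold lower.

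Other members of the growth hormone and IGF axis were higher. Igf1r, the receptor that hepatocytes hardly make, was at least 28.5-fold higher and Igf2, the fetal growth factor, at least 27.7-fold. Jak2, the kinase bound to the growth hormone receptor, was higher by 2.38 ± 0.30 and Irs2, an insulin receptor substrate, by 1.57 ± 0.30. In all, 11 of the 20 genes of this axis were lower and 7 higher.

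Hepatocytes divide metabolic work along the liver lobule, and genes of both its zones were lower. Of 22 periportal genes, 21 were lower and 1 higher (median -6.16). Of 19 pericentral genes, 14 were lower and 0 higher (median -3.08). Pck1, which commits carbon to gluconeogenesis, differed by -9.37 ± 0.47, and Sds, serine dehydratase, was at least 158-fold lower. Hal, which breaks down histidine, was at -0.61, 0.67 and -0.95 against 4.80, 5.14 and 4.60 (-5.14 ± 0.63). The periportal gene that was higher was Cdh1, E-cadherin (1.80 ± 0.28). Among pericentral genes, Cyp2e1, the P450 of ethanol oxidation, differed by -7.71 ± 1.38 and Oat, ornithine aminotransferase, by -3.06 ± 0.23. Glul, the glutamine synthetase of the last hepatocytes around the central vein, was at 3.43, 3.19 and 3.88 against 4.45, 3.76 and 3.82 and was not called (-0.51 ± 0.35, adjusted p = 0.22).

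Amino acid breakdown was lower throughout: all 43 tested genes of the urea cycle and amino acid catabolism were called lower (median -4.84). Cps1, the entry enzyme of the urea cycle, differed by -7.25 ± 1.25 and Arg1, its last enzyme, by -4.42 ± 0.70. Gpt, alanine aminotransferase, was at -1.97, -1.63 and -1.96 against 3.24, 3.62 and 2.91 (-5.11 ± 0.18). The enzymes of branched-chain amino acid breakdown were reduced less, with Bckdha at -2.45 ± 0.11 and Mccc2 at -2.80 ± 0.12. Fatty acid oxidation had 28 of 30 genes lower and 1 higher. Acadm, the medium-chain dehydrogenase, stood at 0.96, 0.71 and 0.35 against 5.48, 5.64 and 5.29 (-4.79 ± 0.17). The gene that was higher, Oxct1, codes for the enzyme with which tissues outside the liver use ketone bodies (5.0 ± 0.50).

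Peroxisomal enzymes were lower in 30 of 31 (median -3.69), fatty acid and triglyceride synthesis in 18 of 25 (median -2.21) and iron and heme genes in 22 of 29 (median -1.93). Hamp, the iron hormone hepcidin, read 1.81, -0.76 and 1.21 against 5.97, 6.09 and 5.04, a difference of -4.95 ± 1.03. Alas1, the first enzyme of heme synthesis, differed by -3.67 ± 0.34. Cholesterol synthesis was more mixed, with 15 of 26 lower and 3 higher. Insig2, which holds back sterol sensing, differed by -5.64 ± 0.37. Nsdhl and Dhcr7, enzymes of the late steps, differed by -4.28 ± 0.59 and -2.60 ± 0.42.

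Genes of drug metabolism were lower at each stage. Of 28 P450 and related enzymes, 24 were lower and 2 higher (median -5.88). Of 32 conjugating enzymes, 28 were lower and 1 higher (median -3.21). Cyp2d4 was at -2.81, -3.39 and -3.38 against 3.26, 3.41 and 3.20 (-6.48 ± 0.19). The P450 genes that were higher are targets of the dioxin receptor: Cyp1a1 was not well above background on any MH array and at 2.63, 0.36 and 2.25 on the LN111 arrays, at least 133-fold higher, and Cyp1b1 was higher by 3.78 ± 1.19, a call lost without LN111 replicate 3 (2.95), MH replicate 1 (3.23) or MH replicate 3 (3.31). Cyp1a2, of the same family, was lower on all 3 LN111 arrays but not called (-4.35 ± 1.85, adjusted p = 0.057), although it was without LN111 replicate 1 (-5.42) and in 4 other settings (-4.35 to -3.84). The conjugating enzyme that was higher was Gstp1, a glutathione transferase known from preneoplastic rat liver, at 4.57, 4.69 and 4.28 against -1.25, -1.28 and -0.89 (5.65 ± 0.26).

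Uptake carriers of the sinusoidal membrane and pumps of the bile canaliculus were lower. Slc10a1, which takes up bile salts with sodium, was at -2.26, -4.81 and -4.73 against 5.02, 5.15 and 5.12 (-9.03 ± 0.91). Slco1b2, a carrier of organic anions, was at least 608-fold lower. Abcb11, the bile salt export pump, differed by -7.46 ± 1.61. Other efflux pumps were higher. Abcb1b, a multidrug pump, read 3.1, 3.35 and 2.68 against -1.28, -2.24 and -1.43 (4.70 ± 0.31). Abcc1, another, read -0.83, -0.84 and -0.82 against -4.49, -4.40 and -4.42 (3.61 ± 0.11, adjusted p = 4.5e-09). Slco3a1, an anion carrier of many tissues, was at least 10.1-fold higher. Together 16 of 23 transporters were lower and 6 higher. Of 20 bile acid genes, 19 were lower and 0 higher. Cyp7a1, which sets the rate of bile acid synthesis, was lower by at least 29.1-fold, although the MH arrays ranged over 1.35, -4.27 and -0.79.

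Genes of pathways to which some agents of the medium belong are grouped below by agent, and these differed in mixed directions. Medium, culture, passage and sort separate the groups at once, so the effect of an agent was not tested. For nicotinamide, 17 of 21 genes of NAD synthesis and nicotinamide use were lower and 2 higher. Kynu, kynureninase of the tryptophan route, differed by -10.86 ± 0.45, and Nnmt, which methylates nicotinamide, by -2.60 ± 0.34, although another Nnmt probe read 1.53. The higher genes were Bst1, an ectoenzyme that splits NAD (at least 200-fold), and Sirt1, an NAD-dependent deacetylase (0.75 ± 0.19). Nampt, the salvage enzyme, was not called, with MH arrays at 6.78, -1.35 and -1.01, but was called without MH replicate 2 (-4.72) or 3 (-4.55).

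For ascorbate and proline, the genes of synthesis of ascorbate and breakdown of proline were lower and those of proline synthesis and collagen hydroxylation higher. Gulo, the last enzyme of ascorbate synthesis in rats, differed by -5.29 ± 0.67, and Slc23a1, an ascorbate transporter, was at least 71.3-fold lower. Prodh and Aldh4a1, which break down proline, differed by -4.84 ± 0.44 and -4.21 ± 0.28. Aldh18a1, which starts proline synthesis, was at least 16.9-fold higher. Plod2, a lysyl hydroxylase that needs ascorbate, was at least 119-fold higher and P4ha2, a prolyl hydroxylase, higher by 1.62 ± 0.18. The list held 9 higher and 9 lower genes of 20.

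Selenoprotein genes were called in both directions. Selenop, the plasma selenium carrier made by liver, was at 2.78, 1.66 and 2.13 against 5.99, 5.91 and 6.03 (-3.79 ± 0.57). Gpx1, the cytosolic glutathione peroxidase, differed by -3.98 ± 0.30, and Dio1, a deiodinase of liver and kidney, was at least 137-fold lower. Gpx3, the plasma peroxidase made mainly by kidney, was at 2.18, 2.21 and 2.70 against -5.52, -5.01 and -5.21 (7.61 ± 0.24). Gpx2, the peroxidase of gut epithelium, was higher by 5.06 ± 0.70 and Txnrd1, thioredoxin reductase, by 1.36 ± 0.27. Of 25 genes, 13 were lower and 9 higher.

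For dexamethasone, 15 of 27 glucocorticoid response genes were higher and 10 lower. The receptor itself, Nr3c1, was at -0.44, -0.97 and -0.07 against 2.28, 1.10 and 1.23 (-2.03 ± 0.32). Fkbp5, a chaperone that glucocorticoids induce in many cells, was higher by 3.27 ± 0.30 and Ddit4, an inhibitor of mTOR signalling, by 3.66 ± 0.32. Tsc22d3, the mediator GILZ, was called (1.49 ± 0.45) although the groups overlapped, at 1.50, 2.10 and 2.16 against 1.56, -0.62 and 0.37. Targets that were lower include Tat and Pdk4: Tat (tyrosine aminotransferase) differed by -2.94 ± 0.53, and Pdk4 (a kinase of pyruvate dehydrogenase) was at least 16.3-fold lower.

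For EGF, the receptor Egfr was at -0.69, -0.16 and -0.70 in LN111 and 3.47, 1.83 and 2.54 in MH (-3.13 ± 0.34, adjusted p = 1.9e-05). Every LN111 array was below every MH array. Erbb3, a receptor partner in hepatocytes, differed by -2.32 ± 0.35, while Erbb2 was at least 16-fold higher. Ligands of the receptor were higher, Hbegf at least 9.56-fold, Areg at least 7.55-fold and Ereg at least 6.68-fold. The feedback inhibitors Dusp6 and Dusp7, phosphatases of MAP kinases, were higher by 1.08 ± 0.38 and 2.67 ± 0.18, the former not called without LN111 replicate 3 (0.74) or MH replicate 1 (0.76). In total 16 of 27 genes of this group were higher and 7 lower. Of 17 with a probe measured on all 6 arrays, 8 were higher and 6 lower. Among immediate early factors 18 of 28 were higher and 3 lower (median 2.05, 1.06 with normexp), and of the 21 measured on all 6 arrays 10 were higher and 4 lower (median 0.58). Klf4, a factor of epithelial renewal, was at 2.20, 1.74 and 2.51 against -4.29, -5.22 and -4.50 (6.82 ± 0.27), and Fosb, an AP-1 subunit, was at least 17.5-fold higher. Jun, another subunit, differed by -1.50 ± 0.23, and Egr1 was not called (0.58 ± 0.48; 1.59 and called without scaling).

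Basement membrane genes, laminin chains among them, were mostly higher on LN111 than in MH, and this was not particular to LN111. Of 20 basement membrane genes, 17 were higher and 2 lower (median 3.79). Against the same MH arrays the list had a median of 3.0 on LN511 and 3.3 on Mat. Compared directly, 9 of the 20 were higher on LN111 than on LN511 and 3 lower, and 0 were called against Mat. Lama5, the α chain of laminin-511, was not well above background on any MH array and at 0.83, 2.14 and 1.10 on the LN111 arrays, at least 102-fold higher, while Lama1, the α chain of laminin-111, did not pass the detection filter. Lamb1 and Lamc1, the β and γ chains that laminin-111 and laminin-511 share, were higher by 5.22 ± 0.22 and 3.72 ± 0.21. Lamb3, a chain of the epidermal laminin, was higher too, by 2.36 ± 0.71. Col4a1, the network collagen of basement membranes, stood at 3.98, 3.75 and 4.72 against -1.62, -1.25 and -1.06 (5.46 ± 0.28). Lower were Col18a1, a collagen of the liver sinusoid (-1.74 ± 0.36), and Frem2, an epithelial basement membrane protein (-1.74 ± 0.22). Hspg2, Lama3, Lama4 and Col4a2 were not analysed here.

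Receptors for these laminins were higher in part. Itga3, whose integrin binds laminin-511 and the epidermal laminin, was at least 13.7-fold higher. Itgb4, the β chain of hemidesmosomes, was at 0.77, 2.81 and 0.75 against -2.75, -2.73 and -2.96 (4.26 ± 0.60), and Itgb1, the β chain most matrix receptors share, at 3.38, 3.67 and 3.59 against 1.89, 2.09 and 1.94 (1.57 ± 0.13). Itga6, the α chain that binds laminin-111, differed by 0.60 ± 0.37, and Dag1, dystroglycan, by -0.22 ± 0.12, and neither was called, but Itga6 was called without LN111 replicate 3 (0.91) and without scaling (1.60), and Dag1 was called higher (0.79) with quantile normalization and without scaling. Sdc2, the syndecan of liver, differed by -3.14 ± 0.15. Of 30 receptors, 18 were higher and 3 lower, and of the 29 without Cd44, 17 and 3. The median of the 30 was 1.66, and 0.75 with normexp. Of 19 with a probe measured on every array of both groups, 8 were higher and 3 lower (median 0.66).

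Interstitial matrix genes were higher in 27 of 30 and lower in 2 (median 3.87). Of 15 with a probe measured on all 6 arrays, 13 were higher and 1 lower (median 3.42). Col1a2, the partner chain of Col1a1, was higher by 5.47 ± 0.59. Lox, which crosslinks collagen, was at least 121-fold higher, and Ccn2, the connective tissue growth factor, was at 2.65, 3.29 and 3.45 against -3.77, -5.58 and -4.17 (7.63 ± 0.44). Serpinh1, the collagen chaperone, was higher by 3.45 ± 0.18. Fn1, fibronectin, which hepatocytes secrete into plasma, differed by 0.59 ± 0.30 and was not called, although it was with quantile normalization (1.72), without scaling (1.59), in some other settings and without LN111 replicate 1 or MH replicate 1 (0.82 in each), and Tgfbi, an adhesive matrix protein, differed by -5.49 ± 0.74. Among proteases and inhibitors, 22 of 30 were higher. Timp1, an inhibitor of matrix metalloproteinases, was at 5.92, 4.60 and 6.06 against -1.33, -1.44 and -1.0 (6.78 ± 0.59), and Mmp2, a gelatinase, was higher by 6.66 ± 0.45. Hpn, the hepatocyte surface protease hepsin, differed by -4.61 ± 0.81.

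Most matrix genes that differed between the laminins were higher on LN111 than on LN511, while no gene of the list was called between LN111 and Mat. Against the same MH arrays the fibrillar collagen list had a median of 3.87 on LN111, 2.91 on Mat and 1.67 on LN511. LN111 was compared directly with LN511 in the fit of all arrays, in which 2780 genes (15.7%) differed, 1157 higher on LN111 and 1623 lower. In that list 22 of 30 genes differed, 20 of them higher on LN111 (median 3.12). Col3a1, the second fibrillar collagen, was at 3.38, 2.28 and 3.77 on LN111, 0.05, -3.56 and -2.0 on LN511, 2.59, 0.79 and 2.47 on Mat and -0.19, 1.11 and 0.94 in MH. The means of LN111 and LN511 lay on opposite sides of MH, with the highest LN511 array inside the MH range, and LN111 exceeded LN511 by 4.98 (adjusted p = 0.0042). Its difference from MH was 2.52 ± 0.85, or 1.75 (adjusted p = 0.39) with the slide as a block, and was not called without LN111 replicate 1 (2.41), LN111 replicate 3 (2.21) or MH replicate 1 (2.12).

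Markers of stellate cells and fibroblasts moved with it, 12 of 20 higher on LN111 than on LN511 and none lower (median 2.27). Pdgfrb, a receptor of stellate cells, was at -0.04, -0.44 and 0.73 on LN111, -3.21, -5.12 and -4.39 on LN511 and -1.26, -1.99 and -1.39 in MH, and its call against MH was lost without LN111 replicate 3 (1.31) or MH replicate 2 (1.41). The part of such cells in the collagen values was not tested. The progenitor and biliary list went the other way, with 12 of 26 lower on LN111 than on LN511 and 1 higher (median -1.53), and so did the keratin and desmosome list, with 8 of 21 lower and 1 higher. Against LN511 and Mat averaged, 1374 genes (7.78%) differed, a count that fell to 838 without LN111 replicate 1 and 329 without LN111 replicate 3 and rose to 2254 without LN111 replicate 2. With the replicate number as a block the count was 2035. Of the liver lists, 1 of 15 liver isozymes, 3 of 34 plasma carriers, 5 of 29 hepatocyte transcription factors and 6 of 30 coagulation genes differed between the laminins, where 15.7% of all genes did. Against Mat, 0 genes were called by limma in the fit without a replicate block, with 2217 at an unadjusted p under 0.05.

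**Figure D5:**
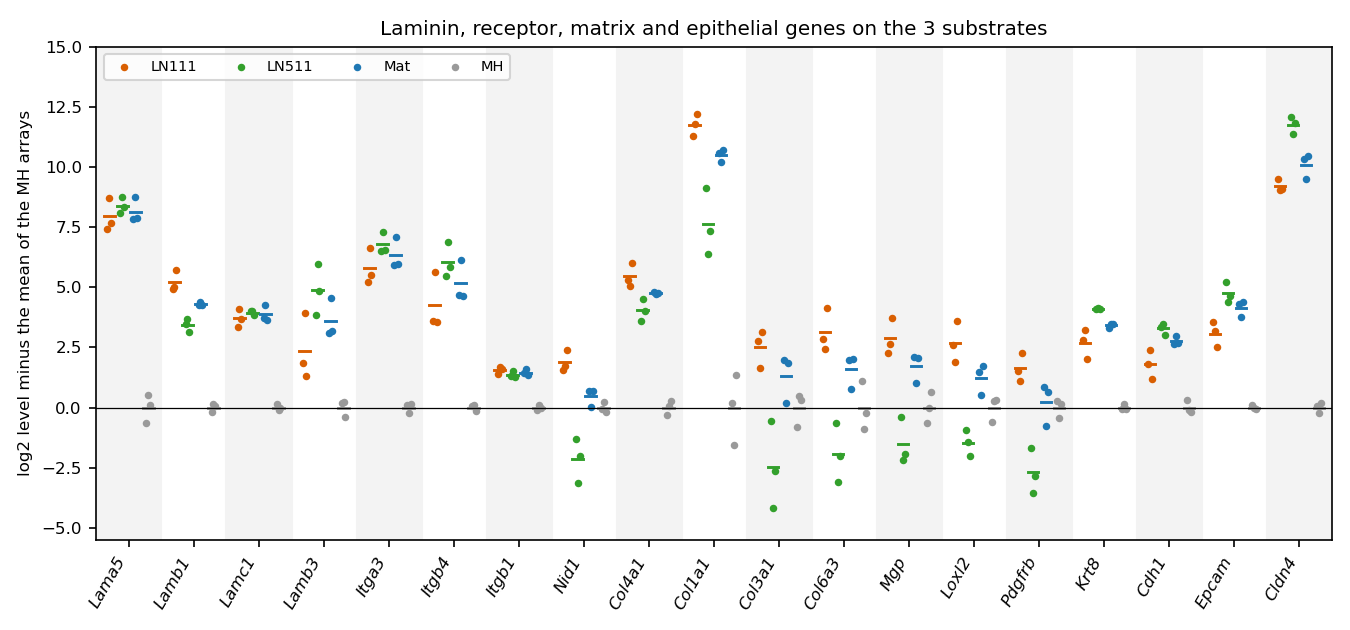
Level on each array minus the mean of the MH arrays (log2) for 19 genes on LN111, LN511 and Mat, with the MH arrays in grey. Points are arrays and bars are group means. The LN511 means lie below MH for Nid1, Col3a1, Col6a3, Mgp, Loxl2 and Pdgfrb, where the LN111 means lie above it, and the LN511 arrays lie above LN111 for the epithelial genes Krt8, Cdh1, Epcam and Cldn4. Genes at background in MH, such as Lama5 and Cldn4, are drawn at their measured values.

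Progenitor and biliary markers were higher in 22 of 26 genes and lower in 1 (median 4.10), or in 21 of 25 and 1 (median 3.95) without the sort marker Cd44. Of 12 with a probe measured on all 6 arrays, Cd44 not removed, 9 were higher and 1 lower (median 2.66). Against the same MH arrays the whole list had a median of 5.65 on LN511 and 5.15 on Mat. Sox9, a factor of biliary and progenitor cells, was at least 22.2-fold higher and Krt19, a keratin of bile ducts, at least 203-fold. Epcam, an adhesion molecule of hepatic progenitors, was at 1.05, 0.66 and -0.01 against -2.40, -2.54 and -2.59 (3.08 ± 0.30). Tnfrsf12a, the receptor of the progenitor mitogen TWEAK, was higher by 4.78 ± 0.19. Fetal genes did not follow as a block. Afp, alpha-fetoprotein, stood at 5.47, 2.41 and 3.36 against 3.63, 2.33 and 3.43, with overlap between the groups and no call (0.62 ± 1.10, adjusted p = 0.63). H19, an imprinted RNA of fetal liver, was higher by 3.05 ± 1.25, a call lost in 5 of the 6 fits that left out 1 array (2.61 to 3.26), and Igf2bp3, a fetal RNA-binding protein, differed by -4.53 ± 0.38. In all 8 of 12 fetal and imprinted genes were higher and 2 lower. Of 6 with a probe measured on all 6 arrays, 2 were higher and 2 lower.

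Keratin and desmosome genes were higher more often than lower, while junction and polarity genes were split. The hepatocyte keratins Krt8 and Krt18 were higher by 2.68 ± 0.24 and 0.86 ± 0.17. Krt7, a duct keratin, was at least 163-fold and Krt20, a gut keratin, at least 92.8-fold higher. Pkp1, a desmosomal plaque protein of stratified epithelia, was at least 338-fold higher. Of 21 keratin and desmosome genes 12 were higher and 5 lower (median 1.50, which reversed to -0.18 over members well above background on all arrays). Among gap junction genes Gjb1, the connexin of hepatocytes, differed by -3.19 ± 0.28, and Gja1, the connexin of many other cells, was higher by 3.68 ± 0.33. Cldn4, a claudin of ducts, was at least 153-fold higher. Junction and polarity genes as a list were split, 12 higher and 15 lower of 41, and their median of -0.10 turned positive with quantile normalization (0.49) and without scaling (0.91).

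Actin, SRF and YAP targets were higher in 31 of 39 (median 1.64). Vim, the intermediate filament of mesenchymal and cultured cells, was at 4.11, 4.87 and 5.03 against -3.07, -2.87 and -2.71 (7.55 ± 0.36). Tagln, an actin-binding protein of smooth muscle, was at least 257-fold higher and Tpm2, a tropomyosin, at least 343-fold. Flna, filamin A, whose promoter is shown above, was higher by 6.53 ± 0.37, and Myh10, a non-muscle myosin, at least 16.4-fold. Yap1 itself differed by -1.57 ± 0.11, with another probe at 0.52. S100 proteins and annexins had the highest median of the lists in the main analysis, 5.30, with 18 of 21 higher and 0 lower. The median came to 2.9 with normexp, and to 2.6 over 14 genes with a probe measured on all 6 arrays. In these settings the fibrillar collagen list was higher (3.1 and 3.4). Mesothelial markers were higher in 11 of 14 and lower in 1. Of 5 with a probe measured on all 6 arrays, 3 were higher and 1 lower. Msln, mesothelin, was at 2.54, 3.76 and 3.17 against -4.86, -5.85 and -5.03 (8.40 ± 0.57), Upk1b, a uroplakin of mesothelium, was at least 109-fold and Wt1, the defining factor of mesothelium, at least 4.62-fold higher. Upk3b was not analysed here.

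Signalling molecules of inflammation differed both ways. Of 37 chemokine and cytokine genes, 20 were higher and 11 lower. Of 15 with a probe measured on all 6 arrays, 7 were higher and 5 lower. Beside Ccl2 and Ccl7, the neutrophil chemokine Cxcl1 was at 5.29, 3.09 and 5.51 against -1.25, -4.49 and -1.63 (7.08 ± 0.84), and Cxcl3 was at least 160-fold higher. Cx3cl1, a membrane-bound chemokine, was at least 57.7-fold higher and Csf1, the growth factor of macrophages, higher by 4.87 ± 0.28. Lower were Ccl6, a chemokine of macrophages (at least 202-fold), Il1a (at least 37.9-fold) and Cxcl11, which interferon induces (at least 21.3-fold). Interferon-stimulated and MHC class I genes were lower in 24 of 28 and higher in 4 (median -1.64). Bst2, tetherin, was at 0.10, -0.72 and -0.94 against 3.84, 3.89 and 4.16 (-4.48 ± 0.28), and Oas1a, an RNA sensor, was at least 72.1-fold lower. B2m, the light chain of MHC class I, differed by -1.66 ± 0.17. Irf1, a factor of the interferon response, was higher by 0.80 ± 0.23.

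In the TGF-beta family the liver's own ligands were lower and others higher. Inhbc and Inhbe, activin chains made by hepatocytes, differed by -7.76 ± 0.87 and -6.03 ± 0.64, and Gdf2, the ligand BMP9, was at least 39.9-fold lower. Tgfb2 was at least 32.9-fold higher, Inhbb, another activin chain, at least 38.3-fold, and Fst, which traps activins, at least 226-fold. The list held 19 higher and 4 lower genes of 34. Of 21 with a probe measured on all 6 arrays, 9 were higher and 1 lower. In the Wnt and Notch list 14 of 27 were higher and 12 lower, with a median of 1.45 that came to 0.23 with undetected genes at their bound. Of 15 with a probe measured on all 6 arrays, 3 were higher and 11 lower (median -0.96).

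Cell cycle genes were only moderately higher, and the MH arrays were uneven for them. Of 42 genes, 16 were called higher and 5 lower (median 0.78). Mki67, the proliferation antigen, was at -2.41, -1.50 and -1.85 in LN111 and -3.46, -3.86 and -1.42 in MH, and was not called (1.00 ± 0.55, adjusted p = 0.13). MH replicate 3 was above every LN111 array, and the other MH arrays were below them. Cdk1, the kinase of mitosis, was at -0.28, -0.02 and 0.12 against -1.90, -2.30 and 0.96 and was not called either. MH replicate 3 was the highest MH array for 30 of the 39 cell cycle genes detected on at least 2 of them, and without it 30 genes were higher and 5 lower, with a median of 1.44, Mki67 (1.74) and Cdk1 (2.04) among them. Both were also called without scaling (2.00 and 2.03). Why it stood apart was not tested. Pcna, the replication clamp, was higher by 1.72 ± 0.16, Cdk6, a kinase partner of cyclin D1, by 2.33 ± 0.20, and Ccnd1, cyclin D1, by 1.32 ± 0.41, which was not called without LN111 replicate 2 (1.00) or MH replicate 3 (1.19). Both INK4 inhibitors were higher, Cdkn2a at -1.95, -0.89 and -1.61 against -6.02, -5.06 and -4.82 (3.82 ± 0.37) and Cdkn2b by 3.62 ± 0.31. Lower were the mitotic kinases Aurkb (-2.93 ± 0.32) and Aurka (-4.65 ± 0.16), the latter near no change with another probe (-0.13).

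Of 29 DNA damage response and cell death genes, 17 were higher and 3 lower. Cdkn1a, the inhibitor p21, was at 3.86, 3.17 and 3.91 against 2.01, -1.06 and 1.80 (2.73 ± 0.66). Mdm2, a ubiquitin ligase, was higher by 2.35 ± 0.23 and Ccng1, cyclin G1, by 3.61 ± 0.25. Of 28 NRF2 targets, 11 were higher and 10 lower, a division that depends on the scaling, with 18 higher and 5 lower under quantile normalization and 17 and 1 without scaling. Nqo1, a quinone reductase, was higher by 3.56 ± 0.29, Srxn1, sulfiredoxin, by 3.55 ± 0.24, and Slc7a11, the cystine transporter, at least 54.9-fold. Gclc, the rate-limiting enzyme of glutathione synthesis, differed by -1.38 ± 0.17.

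All 41 oxidative phosphorylation subunits tested were called lower, with a median of -1.95, and that list's median stayed negative under each scaling tried. Sdha, a subunit of complex II, was at 1.34, 1.31 and 1.25 against 3.80, 3.67 and 3.81 (-2.46 ± 0.11). Atp5f1a of the ATP synthase differed by -2.08 ± 0.10. Cytosolic ribosomal protein genes were slightly lower, 23 of 39 (median -0.42), but this direction reversed with quantile normalization (0.78) and without scaling (0.59). Ribosome biogenesis and MYC targets were higher in 11 of 28 and lower in 4. These counts became 18 and 0 with quantile normalization, 24 and 0 without scaling, and 4 and 0 with the slide as a block. Heat shock and unfolded protein genes were lower in 14 of 31 and higher in 4, and circadian genes lower in 9 of 18 and higher in 2. Their medians, -0.61 and -0.71, became 0.40 and 0.29 without scaling.

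Amino acid transporters and ATF4 targets were higher in 16 of 29 and lower in 7 (median 1.18). With normexp 12 were higher and 7 lower (median 0.35). Of 21 with a probe measured on every array of both groups, 9 were higher and 5 lower (median 0.39). Of 29 hypoxia and glycolysis genes, 11 were higher and 9 lower (median 0.03), but 17 were higher and 4 lower with quantile normalization and 17 and 2 without scaling.

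Markers of the other cell types that liver preparations can hold were counted in the same way. Kupffer cell and macrophage markers were lower in 24 of 28 and higher in 1 (median -5.41). Clec4f, the defining Kupffer cell lectin, was at 3.68, 3.44 and 3.68 on the MH arrays and not well above background on any LN111 array, at least 829-fold lower. Cd5l, a secreted macrophage protein, was at least 110-fold and Timd4, a receptor of resident Kupffer cells, at least 17.5-fold lower. Hmox1, the heme oxygenase of macrophages that other cells make under stress, was the member that was higher (2.81 ± 0.37). Sinusoidal endothelial markers were lower in 17 of 23 and higher in 2. Lyve1 was at least 71.6-fold and Plvap at least 63.9-fold lower, and Stab2, the scavenger receptor of these cells, differed by -3.91 ± 0.64. Stab1 was not analysed here.

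Summed over its members, as signal over the array's 75th percentile, the Kupffer list ranged from 7.97 to 9.85 on the LN111 arrays and from 63.1 to 67.0 on the MH arrays, and the endothelial list from 2.69 to 4.48 and from 15.7 to 17.6. The part of these cells in the lower values of complement, iron, interferon and chemokine genes was not tested. Lymphocyte and neutrophil markers were lower in 8 of 12 and higher in 2, and erythroid and platelet markers lower in 4 of 10 and higher in 2. Stellate cell and fibroblast markers were higher in 10 of 20 and lower in 5. Des, the muscle filament desmin, was higher by 5.29 ± 0.88 and Acta2, smooth muscle actin, by 4.16 ± 0.35. Lrat, which stores retinol in stellate cells, was not called (-2.48 ± 1.02), but it was without LN111 replicate 2 (-3.46) and in 7 other settings (-2.74 to -1.96), and Colec10, a collectin of stellate cells, was at least 36.2-fold lower. The stellate list had a median of 1.28 on LN111 and -1.09 on LN511, both against the same MH arrays. Its summed signal ranged from 17.8 to 34.7 on the LN111 arrays and from 32.3 to 37.8 on the MH arrays, and that of the mesothelial list from 31.3 to 58.5 and from 4.41 to 5.25. The part of stellate and mesothelial cells in the matrix, chemokine and actin values was not tested.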

How the data were processed

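Total RNA of 12 samples was amplified from 100 ng, labelled with Cy3 and hybridised singly, per the labels' protocols. The deposited files hold 1 processed signal intensity per spot, which per the file headers is background-subtracted and corrected for spatial trends, and Agilent Feature Extraction 10.7 is named in the submitters' processing notes. The authors' deposited value table holds these intensities within 0.0072 on the log2 scale, linear, not centred and unscaled, with column medians of 61.8, 59.0 and 45.1 for LN111 and 27.5, 27.6 and 23.6 for MH.

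Control spots and outlier spots were removed (45489 of 45598 probes kept) and the log2 intensity minus each array's 75th percentile was taken. Spots of a probe were averaged. A gene was represented by its usable probe of highest mean signal. Of the probes, 21109 were named through their accession, 2736 through another listed accession, 5129 through the symbol, 344 through an older symbol and 16280 by the array's own name. Placeholder names made up 5401 of the tested genes. The arrays' number limits the precision, with a median SD between replicates of 0.306 for LN111 and 0.214 for MH.

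All 12 arrays entered 1 limma 3.58.1 fit (lmFit and eBayes, two-sided, R 4.3.3), with no covariate and Benjamini-Hochberg adjustment at 0.05. The scripts were tested on simulated data. The alternatives were normexp background correction (offset 50), quantile normalization, no scaling, 2 filters on dim probes, the mean of probes, the 6 arrays alone, the slide and the replicate number as blocks, array weights, signals raised to background, the value table, a 2-fold requirement and leaving out each array. A further one, chosen after seeing the data, took the 75th percentile over probes in place of spots.

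Members and lists were chosen with earlier results of these data known. The rule for named genes took the 15 largest differences each way with groups that did not overlap, the 10 largest measured on all 6 arrays, and in each list its key genes, up to 4 members of smallest p in the direction of most calls and up to 3 in the other. Ahsg, Alas1, Apoc3, Arg1, Bckdha, C1r, C1s, C8a, Col1a2, Col3a1, Cyp1a2, Dhcr7, F2, Fabp1, Fosb, Gpx1, Gpx2, H19, Hbegf, Irs2, Lamc1, Mmp2, Myh10, Nr0b2, Pfkl, Plaur, Plg, Prodh, Prox1, Slc23a1, Stat5b, Tf and Wt1 were named outside that rule, after their values were seen, as were genes labelled only in the plots and those of the closing section. Some genes that the rule takes are not reported here. Promoter sequences are from RefSeq's rat table.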

Additional observations from a re-analysis of the deposited data

Results flagged for a closer look

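In 63 of the 17672 genes tested, the calls against MH had opposite signs on the laminins, and the difference between LN111 and LN511 itself was called by limma. All 63 were well above background on all 9 arrays of LN111, LN511 and MH. On the LN111 and MH arrays alone 13333 genes were. Of these, 30 were higher on LN111 and lower on LN511, and 33 the reverse. The comparisons share the MH arrays, and the 10 genes below are those that belong to a gene list.

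Col6a3, a chain of the beaded-filament collagen VI, differed from MH by 3.14 on LN111 and by -1.92 on LN511, and LN111 exceeded LN511 by 5.06. Col3a1, described above, was at 2.52 and -2.46, 4.98 apart. Mgp, a matrix protein that inhibits calcification, was at 2.88 and -1.50, 4.38 apart. Loxl2, a lysyl oxidase that crosslinks collagen, was at 2.69 and -1.46, 4.16 apart. Nid1, which links laminin to collagen IV in basement membranes, was at 1.88 and -2.16, 4.04 apart. These 5 matrix genes were higher on LN111 than in MH and lower on LN511.

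The stellate cell and fibroblast receptor Pdgfrb was at 1.63 and -2.69, 4.32 apart, and Thy1, a surface protein of fibroblasts, at 0.87 and -1.03, 1.90 apart. Ugdh, which makes UDP-glucuronate, was at 0.65 and -0.45, 1.10 apart. In the other direction, Dusp1, a MAP kinase phosphatase, was at -0.59 and 0.82, a difference between the laminins of -1.41, and Hes1, a Notch target, at -0.85 and 0.72, a difference of -1.57. With the slide as a block, all 10 lost their call for LN111 against MH. Leave-one-out fits also ended the calls of Col3a1 and Pdgfrb, as given above, and of Dusp1 and Hes1. Dusp1 was not called without LN111 replicate 1 (-0.55) or MH replicate 3 (-0.40) and Hes1 without MH replicate 1 (-0.67). Groups of 3 arrays are too small for a test of single outlying arrays.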

How the results depend on the processing

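The 12325 calls became 19239 of 35779 genes with no filter, 8169 with the slide as a fixed block and 5733 against a 2-fold change, ranged from 11489 to 11894 with 1 array left out, and stayed within 1.5 times in the other settings (8873 to 13588). LN111 against the mean of LN511 and Mat gave 1374 calls, 246 with the slide as a block and 2035 with the replicate block. It gave 838, 2254 and 329 without LN111 replicates 1, 2 and 3. With no block, there were 2780 calls against LN511 alone and 0 against Mat alone (2217 at an unadjusted p under 0.05). Replicate numbers paired no LN111 and MH samples (correlations of deviations 0.025, 0.003 and 0.090). Between cultured groups, arrays of replicates 1 and 2 did go together. LN111 correlated with LN511 at 0.492 and 0.558 and with Mat at 0.59 and 0.735. For replicate 3 the values were 0.06 and 0.096. Mat replicate 3 instead correlated with LN111 replicate 1 at 0.543 and with LN511 replicate 1 at 0.572. The other pairs of cultured arrays with unlike numbers ranged from -0.677 to 0.224. For LN111 against MH the replicate block gave 12680 calls, and no named gene lost its call under it.

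Of the 232 named genes that were called, 144 remained called in the same direction over genes measured on all 6 arrays, the others being removed by that filter. The slide as a fixed block ended 31 calls, which are named above. Directions turned as follows. With quantile normalization, Alb came to 0.06, Dag1 to 0.79, Prox1 to 1.06, and the medians of the cytosolic ribosomal proteins to 0.78 and of the heat shock list to 0.07. Without scaling, Dag1 came to 0.79, Prox1 to 0.97, Slc2a2 to 0.06, Dusp1 to 0.42 and Hes1 to 0.16, and the medians of the ribosomal, heat shock and circadian lists to 0.59, 0.40 and 0.29. The Wnt and Notch median came to -0.07 with no filter and -0.96 with the strict filter, and the keratin and desmosome median to -0.18 with the strict filter. Among genes that were not called, Glul turned to 0.51 with quantile normalization and 0.49 without scaling, Pfkl to 0.66 without scaling, and Afp, C1r and C1s to -0.77, -0.14 and -0.41 with the slide as a fixed block, all still not called. Without LN111 replicate 1 Afp came to -0.24, and without MH replicate 2 Egr1 to -0.02. The causes were not tested, except that the filters change which genes are counted. With normexp, Areg (1.61), Cyp1b1 (1.31), Gata6 (0.31), H19 (1.73), Lamb3 (1.11) and Dusp1 (-0.35) were not called. Quantile normalization also ended the calls of Apoc3 (-3.13), C3 (-2.06), Col18a1 (-0.81), Fgb (-1.22), H19 (3.16), Hnf4a (-0.79), Jun (-0.55), Slc2a2, Tf, Ttr and Dusp1, and no scaling those of Acaca (-0.87), Alb (-0.44), B2m (-0.65), Col18a1 (-0.73), Fgb (-1.83), Gclc (-0.37), Hnf4a (-0.75), Jun (-0.50) and Yap1 (-0.56). The mean of probes ended that of Nnmt (-1.05), and the fit of the 6 arrays those of Dusp6, Slc2a2 and Tsc22d3.

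Detection limits the lower end: genes not well above background in a group have a bounded difference only. Slide and group coincide apart from the Mat arrays, the MH cells were not cultured, and 3 arrays of unstated origin stand for each group.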
